A study of Rattus norvegicus with 484 samples.

Results

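Slc28a2, Gria3, Pla2g12a and Cyp17a1 are 4 rat genes whose liver RNA was among the most different between animals given retinoic acid and animals given vehicle. They were found by their platform symbols, which matched 8 of 23653 probes, or 4 of 10210 named genes. Slc28a2 and Cyp17a1 had 3 probes each, and Gria3 and Pla2g12a had 1 probe each. The genes were picked on the liver difference between retinoic acid and vehicle. That difference is therefore given as a description without a test, and the other compounds, the muscles and the spread between rats carry the tests.

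The series measured RNA of rat liver and of the soleus, quad and EDL muscles on 484 two-colour arrays. Each array set 1 rat, in the Cy5 channel, against pooled RNA of vehicle rats matched for tissue and day, in the Cy3 channel. A protocol was given for 405 of the 484 samples, and the other arrays were taken to be alike. The liver arrays held 15 rats given retinoic acid at 25 mkd, 14 given fenofibrate at 400 mkd, 15 given bezafibrate at 250 mkd, 15 given Wy-14643 at 100 mkd, 15 given rosiglitazone at 100 mkd and 73 given vehicle. The labels write doses in mkd without spelling it out, place the samples on days 2 to 6, and give no strain, age or sex. Soleus had 20 and quad 18 retinoic acid arrays at 25 mkd, beside 35 and 63 vehicle arrays. The other compounds had the liver doses in soleus and quad, with 19 and 18 arrays of fenofibrate, 20 and 20 of bezafibrate, 18 and 16 of Wy-14643 and 20 and 16 of rosiglitazone. EDL had 11 arrays of retinoic acid at 2.5 mkd, 9 of fenofibrate at 50 mkd, 9 of bezafibrate at 25 mkd, 12 of Wy-14643 at 10 mkd and 9 and 4 of rosiglitazone at 10 and 100 mkd, with no arrays of single vehicle rats. Values below are log2 ratios of rat over pool minus the mean of the same-day vehicle rats unless another scale is named.

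Retinoic acid, made from vitamin A, acts through nuclear receptors that bind DNA together with retinoid X receptors, and the liver stores and breaks down retinoids. The peroxisome proliferator-activated receptors (PPARs) use the same partner. Fenofibrate, bezafibrate and Wy-14643 act on the PPAR of the alpha type, which drives fatty acid oxidation in liver, and rosiglitazone acts on the gamma type. Slc28a2 encodes a sodium-coupled transporter that takes purine nucleosides into cells. Gria3 encodes a subunit of the AMPA type of glutamate-gated ion channels, best known from the brain. Pla2g12a encodes a secreted phospholipase A2, an enzyme that cuts fatty acids from phospholipids. Cyp17a1 encodes the cytochrome P450 that hydroxylates steroids and cleaves their side chain on the way to androgens.

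In the RefSeq annotation of build GRCr8, Cyp17a1 lies on chromosome 1 from 255476861 to 255484547, Pla2g12a on chromosome 2 from 221110722 to 221126966, Slc28a2 on chromosome 3 from 129778425 to 129841292 and Gria3 on chromosome X from 125103975 to 125369690. The 250 bases before the start site were matched for 2 of the 4 genes. They are shown because both genes moved with retinoic acid, whose receptors bind repeats of a 6-base half-site. The half-site AGGTCA, its variant GGGTCA, the related AGTTCA and, as the last form searched, GGTTCA were looked for on either strand, and matches are in capitals. The Slc28a2 window, chr3:129819538-129819787 on the plus strand, lies inside the span of the gene.
Slc28a2: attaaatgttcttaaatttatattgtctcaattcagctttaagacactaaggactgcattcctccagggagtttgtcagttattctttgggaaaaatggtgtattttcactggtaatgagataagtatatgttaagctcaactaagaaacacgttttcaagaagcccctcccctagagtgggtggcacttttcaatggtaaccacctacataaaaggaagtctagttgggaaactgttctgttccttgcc
The Pla2g12a window is chr2:221110472-221110721 on the plus strand.
Pla2g12a: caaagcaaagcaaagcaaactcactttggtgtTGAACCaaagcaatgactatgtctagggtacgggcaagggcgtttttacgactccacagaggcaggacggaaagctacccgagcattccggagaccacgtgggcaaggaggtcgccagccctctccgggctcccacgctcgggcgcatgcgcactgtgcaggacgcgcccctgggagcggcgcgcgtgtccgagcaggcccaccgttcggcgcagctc
The Slc28a2 window held no match, no TATAAA on the strand of the gene and had a GC content of 38.0%. The Pla2g12a window held 1 match, TGAACC, which reads GGTTCA on the other strand and starts 218 bases before the start site, and had a GC content of 62.8%. At least 1 of the 4 half-sites occurred in 39.1% of 33469 windows of this length, and GGTTCA on either strand in 9.77%, so such a match is common. The median GC content of the windows was 51.2%. Gria3 and Cyp17a1 are named without a window.

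The direction of the ratios is likely rather than stated. It was read from the channels, and on it Cyp26a1, a retinoic acid hydroxylase, was higher in retinoic acid livers by 3.49 ± 0.16 (SE). On the same reading Acot1, an acyl-CoA thioesterase, was higher with fenofibrate by 2.92 ± 0.34 (SE), and Cyp4a1, a fatty acid hydroxylase, by 2.02 ± 0.14 (SE). Array medians of liver ran from -0.022 to 0.053. The liver of rosiglitazone rat 1376, day 4, stood apart. The spread of its ratios was 4.55 times the liver median, its mean over 7 hepatocyte markers was -2.73, and its mean over 10 skeletal muscle markers was 1.74. Values that rest on it are given with and without it. In muscle, 8 arrays stood apart by spread or by hepatocyte markers.

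Slc28a2 was higher in all 15 retinoic acid livers than the vehicle mean, by 1.63 in the lowest rat, 2.69 at the median and 3.47 in the highest. The mean of days was 2.61 ± 0.15 (SE), a 6.10-fold difference. On day 2 the 3 rats were at 1.64, 2.36 and 2.39, and on day 3 at 3.38, 1.74 and 2.69. On day 4 they were at 3.47, 2.22 and 3.35, on day 5 at 3.20, 1.63 and 2.93, and on day 6 at 2.37, 2.90 and 2.88. The transporter was thus high on each day, with day means from 2.13 to 3.01, and 1 rat on each of days 2 to 5 lay well under its companions. The 73 vehicle livers ran from -0.80 to 1.79. The 3 probes gave 2.68, 2.69 and 2.45 and correlated at 0.987 to 0.992 over the 147 liver arrays. Among 10062 named genes with a liver value, Slc28a2 ranked 3 from the top.

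Gria3 was higher in each retinoic acid liver than in every vehicle liver of its day, in 15 of 15 rats. The lowest rat was at 1.48, the median at 2.47 and the highest at 3.05, and the mean of days was 2.40 ± 0.12 (SE), a 5.28-fold difference. The 3 rats were at 2.04, 2.47 and 2.83 on day 2, at 2.60, 1.48 and 2.29 on day 3 and at 2.68, 2.13 and 3.05 on day 4. Values on day 5 were 2.53, 2.16 and 2.59, and on day 6 they were 2.25, 2.26 and 2.68. The day means of this receptor subunit stayed between 2.12 and 2.62, and the vehicle livers lay between -0.72 and 1.09. Gria3 ranked 5 from the top.

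Pla2g12a was lower in all 15 retinoic acid livers than the vehicle mean, with the lowest rat at -2.97, the median at -1.89 and the highest at -1.14. The mean of days was -1.90 ± 0.11 (SE), a 3.73-fold difference, and the gene ranked 2 from the bottom. Rats were at -1.89, -2.71 and -1.99 on day 2, at -2.27, -2.14 and -1.60 on day 3 and at -2.22, -2.97 and -1.32 on day 4. On day 5 they were at -1.14, -1.53 and -1.54, and on day 6 at -1.62, -2.11 and -1.45. The day means of the phospholipase were -2.20, -2.01 and -2.17 on days 2 to 4 and -1.40 and -1.73 on days 5 and 6, and no trend over days was tested. Vehicle livers ran from -1.50 to 0.89.

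Cyp17a1 was lower in the 15 retinoic acid livers than the vehicle mean, from -2.5 in the lowest rat through -1.62 at the median to -1.15 in the highest. The mean of days was -1.70 ± 0.17 (SE), a 3.24-fold difference, and the gene ranked 4 from the bottom. Rats were at -1.49, -2.32 and -1.33 on day 2, at -1.51, -1.67 and -1.30 on day 3 and at -1.79, -2.5 and -1.49 on day 4. On day 5 they were at -1.15, -1.28 and -1.75, and on day 6 at -2.10, -2.15 and -1.62. The vehicle livers of this steroid enzyme were spread widely, from -2.18 to 1.49, and overlapped the treated livers on days 5 and 6. The 3 probes gave -1.67, -1.90 and -1.52 and correlated at 0.972 to 0.988.

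**Figure D1:**
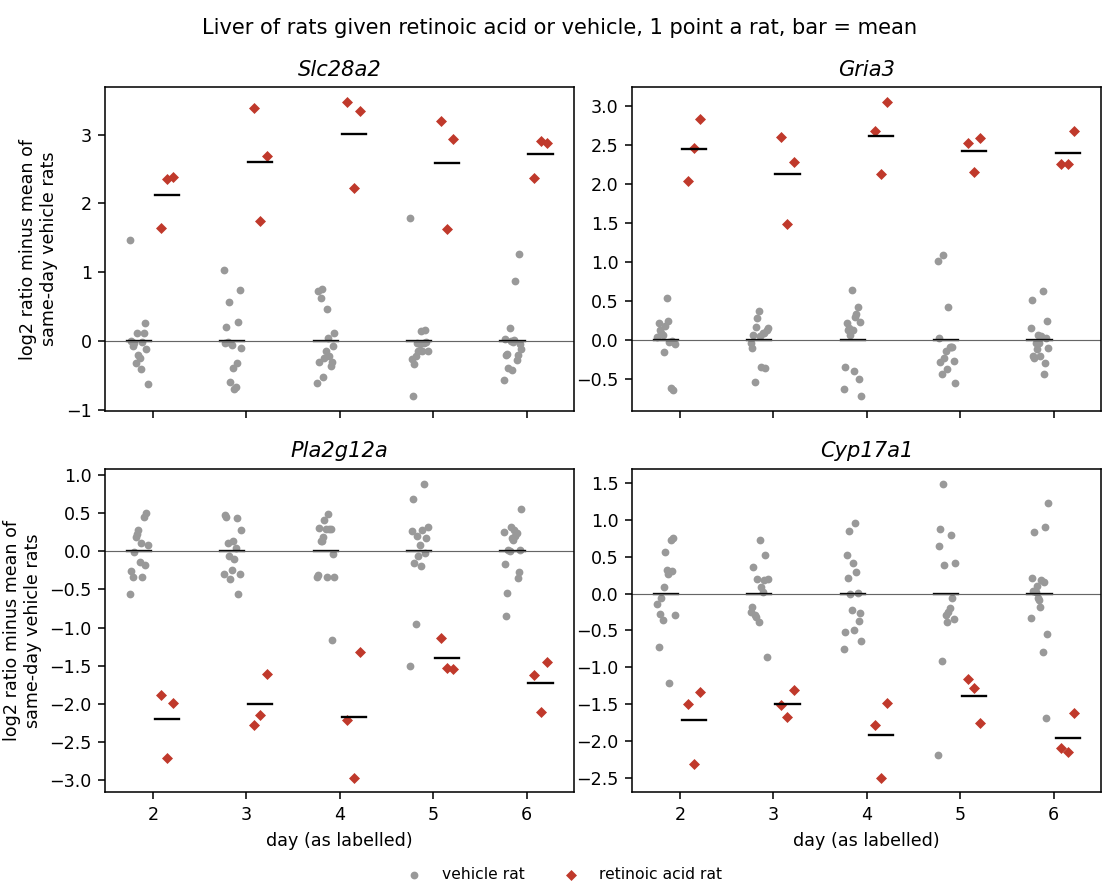
Log2 ratio minus the mean of the same-day vehicle rats (y axis) by labelled day (x axis) for each liver of a rat given retinoic acid (red diamonds, 3 a day) or vehicle (grey circles, 14 to 16 a day); bars are means. Slc28a2 and Gria3 sat above the vehicle rats and Pla2g12a and Cyp17a1 below them, apart from overlaps on days 5 and 6.

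Counted against the vehicle livers of the same day, 14 of 15 retinoic acid rats lay above all of them for Slc28a2 and 15 of 15 for Gria3, while 14 of 15 lay below all of them for Pla2g12a and 11 of 15 for Cyp17a1. Over all features, 29.2% differed between retinoic acid and vehicle livers at an adjusted p below 0.05. Since this contrast chose the genes, the counts describe them. Most of the overlap came from vehicle rat 1050 of day 5. Its liver read 1.79 for Slc28a2, 1.01 for Gria3, -1.50 for Pla2g12a and -2.18 for Cyp17a1, the same signs as the treated livers in all 4 genes. The other 13 vehicle livers of that day ran from -0.80 to 0.17 for Slc28a2 and from -0.91 to 1.49 for Cyp17a1. They ran from -0.55 to 1.09 for Gria3 and from -0.95 to 0.89 for Pla2g12a. Rat 1050 thus lay within the other vehicle livers for Gria3, below the treated livers at 2.16 to 2.59. Without that rat the counts were 15 of 15 for Slc28a2, Gria3 and Pla2g12a and 14 of 15 for Cyp17a1.

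The same vehicle liver was also the highest vehicle liver of its day for the retinoid genes Cyp26b1 and Cyp26a1, which break down retinoic acid, for Lrat, which esterifies retinol, and for Rarb, a retinoic acid receptor. Its Cyp26b1 value was 1.22, against -0.65 to 0.74 in the other vehicle livers and 4.14 to 4.51 in the 3 retinoic acid livers of the day. Its Cyp26a1 value was 0.90, against at most 0.56 and at least 2.39. Lrat was at 0.41, against at most 0.39 and at least 2.32, and Rarb was at 0.43, against at most 0.37 and at least 0.70. On these 4 retinoid genes the rat thus lay above the other vehicle livers and below the treated ones, whereas on Slc28a2, Pla2g12a and Cyp17a1 it lay within or past the range of the treated rats. Its ratios were spread 1.12 times as widely as the liver median. This rat was picked out after its values were seen, and what set it apart was not tested. Left out, it moved the retinoic acid means to 2.64, 2.42, -1.92 and -1.73 for Slc28a2, Gria3, Pla2g12a and Cyp17a1.

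The genes also varied from rat to rat within the retinoic acid group. On 5 of 5 days the retinoic acid rat with the lowest Slc28a2 was also the one with the lowest Gria3. Their deviations from the day mean correlated at r = 0.85 and rho = 0.77 over the 15 livers. Pla2g12a and Cyp17a1 had the same lowest rat on 4 of 5 days and correlated at r = 0.86 and rho = 0.88. The 4 pairs of a higher with a lower gene had r from 0.25 to 0.46. Without the 2 rats farthest from the median or without any 1 day, r ran from 0.78 to 0.90 for Slc28a2 and Gria3 and from 0.80 to 0.89 for Pla2g12a and Cyp17a1, and rho from 0.68 to 0.85 and from 0.80 to 0.90. These are descriptions without a test: the same arrays chose the genes, the pairs were looked at after the values had been seen, and both genes of a pair come from 1 array.

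In the 73 vehicle livers, the within-day SD was 0.64 for Cyp17a1, 0.50 for Slc28a2, 0.42 for Pla2g12a and 0.36 for Gria3, against a median of 0.155 over all features. Of 6 pairs, 3 passed a permutation test within days with 100000 resamples. Pla2g12a and Cyp17a1 correlated at r = 0.42 and rho = 0.43 (adjusted permutation p = 0.0034 and 0.0013). Slc28a2 correlated with Cyp17a1 at r = -0.41 and rho = -0.21 (adjusted permutation p = 0.0034 and 0.18) and with Pla2g12a at r = -0.36 and rho = -0.20 (0.01 and 0.18). Slc28a2 and Gria3, the pair that moved together in the treated rats, had r = 0.20 and rho = 0.03 (0.17 and 0.88). By r, all 3 relations leaned on few arrays, and rho without those arrays is not given here. Without vehicle rat 1050 the r values were 0.28, -0.27 and -0.20. Without the 2 arrays farthest from the median in the first-named gene of a pair, they were 0.28, -0.29 and -0.15. By r, 0 of 6 pairs passed the threshold in each case.

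**Figure D2:**
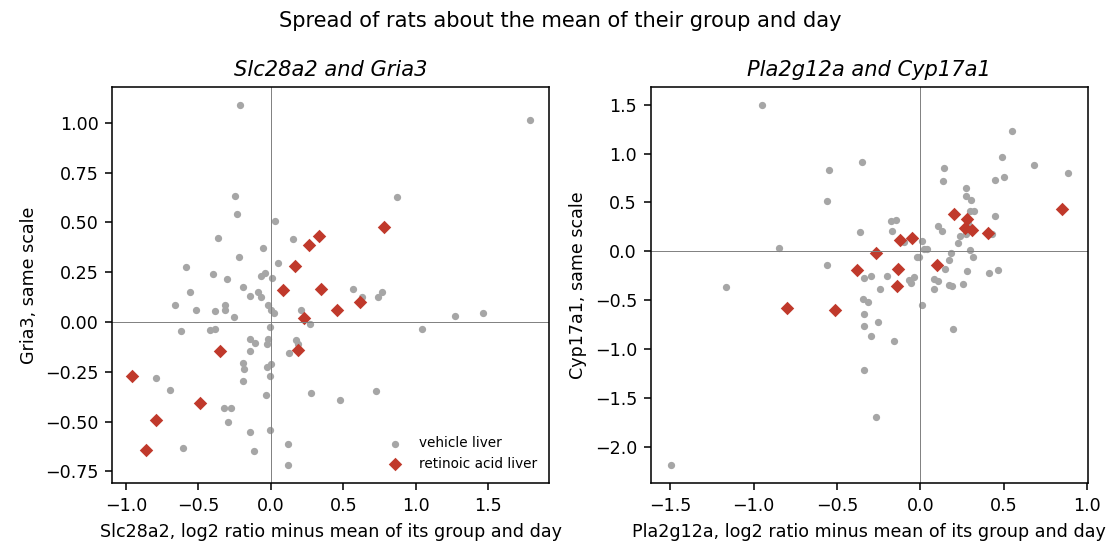
Deviation of each liver from the mean of its group and day, in log2 units, for Slc28a2 (x) against Gria3 (y) on the left and Pla2g12a (x) against Cyp17a1 (y) on the right. Red diamonds are 15 retinoic acid livers and grey circles 73 vehicle livers; the red points rise together in both panels (r = 0.85 and 0.86), and the grey point at the lower left of the right panel is vehicle rat 1050.

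The other compounds moved the 4 genes in other combinations than retinoic acid did. All 5 compounds were set against the same vehicle livers, so their values share those controls and are given side by side. Of 16 tests over 4 genes and 4 compounds, 12 passed. All 4 genes passed with fenofibrate, where 37.0% of all features passed, and 3 of 4 with Wy-14643, where 40.2% did. Bezafibrate called 2 of 4 against 21.3% of features, and rosiglitazone 3 of 4 against 22.7%. With so many features called, these counts do not set the genes apart, and the signs and sizes are what follows.

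Slc28a2 fell with fenofibrate, by 0.60 ± 0.16 (SE) on the log2 scale (adjusted p = 0.00132). The fenofibrate livers had a lowest value of -1.19, a median of -0.62 and a highest of 0.10, and all 5 day means were below 0. It rose with bezafibrate, by 0.44 ± 0.15 (adjusted p = 0.0273), with rats from -0.66 to 1.52, and rosiglitazone by 0.52 ± 0.15 (adjusted p = 0.00912), with rats from -0.36 to 1.26. Wy-14643 gave -0.03 with a 95% interval from -0.33 to 0.28 (adjusted p = 0.919). Retinoic acid and fenofibrate therefore stood on opposite sides of vehicle for this gene. The fenofibrate call was lost when arrays were scaled to one spread (adjusted p = 0.0556, the highest of 14 settings that began at 3.37e-05), and the bezafibrate call ended without day 2, 5 or 6 or against the pool, with adjusted p up to 0.117. The rosiglitazone call was 0.59 without rat 1376 (adjusted p = 0.00394) and ended without day 6 or with array weights, with adjusted p up to 0.137.

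Gria3 rose with every one of the 4 compounds. Wy-14643 raised it by 0.94 ± 0.12 (SE; adjusted p = 4.91e-11), with 15 of 15 livers above the vehicle mean, from 0.29 through a median of 0.97 to 1.57. Fenofibrate raised it by 0.61 ± 0.13 (adjusted p = 3.5e-05), with 14 of 14 livers above the vehicle mean. The bezafibrate value was 0.39 ± 0.12 (adjusted p = 0.0114), with 12 of 15 livers above and adjusted p up to 0.0776 when a day was left out. For rosiglitazone the value was 0.57 ± 0.12 (adjusted p = 0.000278) with 11 of 15 livers above. The receptor subunit was thus higher than vehicle in all 5 treatments, and the retinoic acid mean was the largest. The rosiglitazone value leaned on rat 1376, which stood at 3.27, while the rosiglitazone median was 0.47. Without that rat the value was 0.35 (adjusted p = 0.00832), and with array weights it was 0.40 (adjusted p = 0.0969, the highest over the settings).

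Pla2g12a fell with fenofibrate and Wy-14643. Wy-14643 gave -0.81 ± 0.11 (SE; adjusted p = 7.93e-10), with all 15 livers below the vehicle mean, from -1.49 through a median of -0.75 to -0.26. Fenofibrate gave -0.54 ± 0.12 (adjusted p = 6.03e-05), with all 14 livers below it. Day 2 had the lowest day means, -1.41 for Wy-14643 and -0.89 for fenofibrate, and the 3 livers of each lay below all 14 vehicle livers. The highest day means were -0.34 and -0.19. Over all days, 7 of 15 Wy-14643 and 4 of 14 fenofibrate livers lay below all vehicle livers of their day. The phospholipase gave -0.14 with bezafibrate (95% interval -0.36 to 0.08, adjusted p = 0.424) and 0.12 with rosiglitazone (95% interval -0.10 to 0.34, adjusted p = 0.44).

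Cyp17a1 had opposite signs between compounds. It rose with fenofibrate by 1.10 ± 0.18 (SE; adjusted p = 1.35e-07) and with Wy-14643 by 0.99 ± 0.17 (adjusted p = 5.7e-07), which put 14 of 14 and 14 of 15 livers above the vehicle mean. Fenofibrate livers ran from 0.15 through a median of 1.18 to 2.28, and Wy-14643 livers from -0.32 through 1.2 to 1.75. It fell with rosiglitazone by 0.68 ± 0.17 (adjusted p = 0.00215), with all 15 livers below the vehicle mean. Bezafibrate gave 0.23 with a 95% interval from -0.11 to 0.56 (adjusted p = 0.387) and day means from 0.58 on day 2 to -0.36 on day 6. The steroid enzyme was thus on the side of retinoic acid with rosiglitazone and on the other side with fenofibrate and Wy-14643. Without rat 1376, at -2.74, the rosiglitazone value was -0.55 (adjusted p = 0.0161). It missed the threshold without day 4 (-0.51, adjusted p = 0.0514) and with array weights (adjusted p = 0.135, the highest over the settings).

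**Figure D3:**
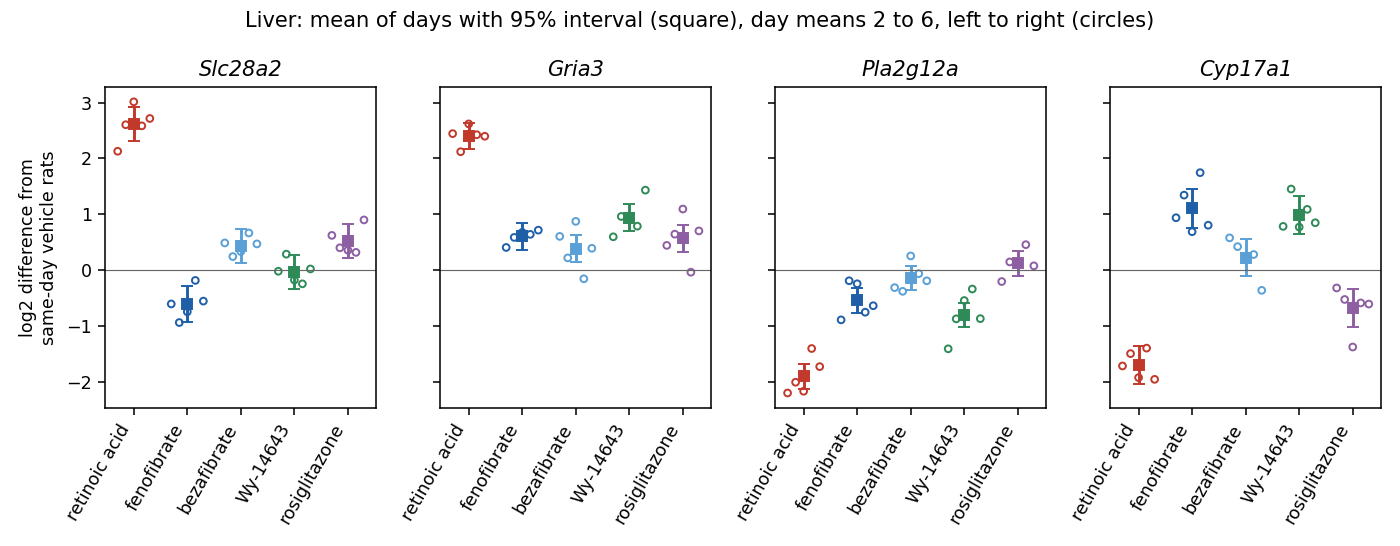
Log2 difference from the same-day vehicle livers (y axis) for each compound (x axis) in 4 panels, 1 a gene; squares are means of days with 95% intervals and open circles the means of days 2 to 6 from left to right. Gria3 is above 0 with all 5 compounds, while Cyp17a1 is above 0 with fenofibrate (1.10) and Wy-14643 (0.99) and below 0 with rosiglitazone (-0.68) and retinoic acid (-1.70).

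Across treatments, most relations between the genes depended on the retinoic acid days. Over the 25 compound-by-day liver effects, which share vehicle arrays within a day, Slc28a2 and Gria3 correlated at 0.80, Slc28a2 and Pla2g12a at -0.66, and Gria3 and Pla2g12a at -0.82. Over the 20 effects without retinoic acid these became -0.18, 0.40 and -0.29. Gria3 and Cyp17a1 went from -0.66 to 0.16, and Pla2g12a and Cyp17a1 from 0.40 to -0.69, since fenofibrate and Wy-14643 lowered Pla2g12a and raised Cyp17a1. Slc28a2 and Cyp17a1 stayed opposed, at -0.86 with and -0.63 without retinoic acid. These values are descriptions without a test.

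By the same measure over the 25 effects, the named genes most like Slc28a2 were Cmtm3 (r = 0.94), Loxl2 (0.93) and Hoxa4 (0.93), and those most like Gria3 were Epb41l1 (0.94), Fxyd6 (0.90) and Camk2n1 (0.90). Retinoic acid gave 0.82 for Cmtm3, 1.27 for Hoxa4 and 1.13 for Epb41l1, all below the values of Slc28a2 and Gria3. The genes most like Pla2g12a were Clec14a (0.88), Gadd45b (0.83) and Akap1 (0.82). Closest to Cyp17a1 were Vwa8 (0.94), Ech1 (0.94) and Cpt2 (0.93). Ech1 and Cpt2 belong to fatty acid oxidation, and they gave 1.55 and 0.96 with fenofibrate and -0.50 and -0.36 with retinoic acid. Over the 73 vehicle livers, with 9827 genes compared, the lists were different. There Slc28a2 was most like Cmtm6 (0.74), Wdfy2 (0.72) and Npas2 (0.70), Gria3 most like Psmd9 (0.56), Cks1b (0.54) and Pygl (0.52), Pla2g12a most like Smim13 (0.74), Ifrd2 (0.69) and Sat2 (0.66), and Cyp17a1 most like Colq (0.69), Pmm1 (0.69) and Ablim3 (0.68).

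Genes of the same families did not share the size of these differences. Of 19 measured genes of nucleoside transport and purine salvage, 4 rose and 5 fell with retinoic acid in liver, with a median of 0.01 against 0.00 over all features. Ada, adenosine deaminase, rose by 1.28 (adjusted p = 5.65e-31), whereas the transporter Slc29a3, urate oxidase Uox and adenosine kinase Adk fell by 0.27, 0.65 and 0.31. The glutamate receptor list held 22 measured genes other than Gria3, receptor subunits together with scaffold and trafficking genes such as Grip1 and Pick1. Of these 3 rose and 0 fell, all 3 of them subunits, by 0.20 for the kainate receptor Grik3, 0.08 for Grin1 and 0.11 for Gria1. Of 16 genes of phospholipases A2 and related hydrolases, 1 rose and 4 fell, with Pafah1b3 at -0.13, Pla2g4b at -0.16, Pla2g1b at -0.13 (adjusted p = 0.0173) and Pla2g2d at 0.10 (adjusted p = 0.0445). Of 31 genes of steroid hormone synthesis, 0 rose and 7 fell, among them the dehydrogenases Hsd17b2 (-0.99, adjusted p = 0.00162) and Hsd17b10 (-0.19) and the cytochromes b5 Cyb5b (-0.24) and Cyb5a (-0.32), the latter a partner of the Cyp17a1 lyase reaction. The shares called in these 4 lists were 47.4%, 13.6%, 31.2% and 22.6%, against 29.2% of all features. The nucleoside and phospholipase lists were thus above that share and the glutamate receptor and steroid lists below it, which was not tested.

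Of 25 retinoid genes, 7 rose and 7 fell in retinoic acid livers, or 56.0%. Cyp26b1 rose by 4.93 ± 0.12 (SE), Lrat by 2.5 ± 0.09, Cyp26a1 by 3.49 ± 0.16 and Rarb by 0.83 ± 0.06. The retinoic acid livers also differed in hepatocyte markers. The mean of 7 such markers ran from -0.68 to -0.10 with a median of -0.36 in the 15 treated livers and from -0.20 to 0.22 in the 73 vehicle livers. Of these markers 1 rose and 3 fell, with Alb, albumin, at -1.53 (adjusted p = 1.72e-12). All 7 pericentral hepatocyte markers passed, 4 higher and 3 lower, and the bile acid enzyme Cyp7a1 among them was at -3.52. Their mean had a median of -0.498 and a lowest value of -1.145 in retinoic acid livers, against -0.514 to 0.46 in vehicle livers. Hepatocyte markers were low with the PPAR alpha agonists too, where their mean had a median of -0.30 with fenofibrate, -0.26 with Wy-14643 and -0.21 with bezafibrate, against 0.02 in vehicle livers and -0.05 with rosiglitazone. The mean of 8 periportal hepatocyte markers had a median of -0.18 with retinoic acid, -0.34 with fenofibrate, -0.31 with bezafibrate and -0.55 with Wy-14643, against a vehicle range of -0.38 to 0.34. Means over 12 stellate cell and 8 liver endothelial markers ran from -0.12 to 0.16 and from -0.07 to 0.20 in retinoic acid livers. In vehicle livers they ran from -0.21 to 0.35 and from -0.23 to 0.21. Single markers did move with retinoic acid: 4 stellate cell markers rose and 2 fell, and 3 endothelial markers rose and 1 fell. The mean of 10 Kupffer cell and macrophage markers ran from -0.672 to 0.25 in retinoic acid livers, with a median of -0.003. Vehicle livers ran from -0.327 to 0.355 for that mean. Ratios give no absolute level, and a change in the share of a cell type cannot be told apart from a change in RNA per cell. The part of these marker shifts in the values of the 4 genes, with any of the compounds, was not tested.

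In muscle, which played no part in the choice of the genes, no gene passed. Pla2g12a was not tested in soleus, where 4 of 35 vehicle arrays held a value. Of the retinoic acid arrays, 0 of 20 could be set against a vehicle value of the same day. Retinoic acid rat 1320 of day 4 held a log2 ratio to the pool of -0.136, but no vehicle array of that day held a value. In soleus 0 of 3 genes passed with each of retinoic acid (2.85% of features called), fenofibrate (3.33%), bezafibrate (0.904%), Wy-14643 (0.191%) and rosiglitazone (2.63%). In quad 0 of 4 passed with each of retinoic acid (2.42%), fenofibrate (5.69%), bezafibrate (1.63%), Wy-14643 (0.0163%) and rosiglitazone (6.86%). Before adjustment, limma gave 1 of 15 soleus and 3 of 20 quad tests a p below 0.05. The differences lay between -0.08 and 0.14 in soleus and between -0.21 and 0.08 in quad, and their 95% intervals lay between -0.21 and 0.31 and between -0.41 and 0.28.

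Retinoic acid in soleus gave -0.04 for Slc28a2 (95% interval -0.21 to 0.12), 0.00 for Gria3 (-0.14 to 0.15) and -0.04 for Cyp17a1 (-0.12 to 0.03). In quad it gave -0.11 for Slc28a2 (-0.28 to 0.06), -0.17 for Gria3 (-0.37 to 0.03), -0.04 for Pla2g12a (-0.22 to 0.15) and -0.04 for Cyp17a1 (-0.11 to 0.02). The 20 treated soleus muscles ran from -0.71 through -0.06 to 0.71 for Slc28a2 and from -0.53 through -0.06 to 0.37 for Gria3. Against the 4 to 11 vehicle muscles of the same day, 3 of the 20 lay above all and 4 below all for Slc28a2, 3 of the 4 on day 6, and 0 above and 3 below for Gria3. In the 18 treated quads, Gria3 ran from -0.60 through -0.21 to 0.26, with 1 below and 0 above all vehicle quads of the day. On these same arrays some of the retinoid genes did move. Of 26 measured, 7 rose and 2 fell in soleus (34.6%), and 17 were not called. In quad 7 rose and 1 fell (30.8%), and 18 were not called. Cyp26b1 rose by 4.02 in soleus and 4.01 in quad, Cyp26a1 by 2.37 and 1.88, Lrat by 1.45 and 2.17 and Rarb by 0.89 and 0.56, each with an adjusted p below 0.05. The difference between liver and muscle was not tested for the 4 genes, because liver chose them. The direct test of soleus against quad called 0 of 3 genes (0 of 3 with limma's unadjusted p below 0.05) and 0.0708% of features.

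Probes of 1 gene ran together in muscle for Slc28a2 and not for Cyp17a1. The Slc28a2 probes correlated at 0.869 to 0.964 in soleus and 0.896 to 0.952 in quad. The Cyp17a1 probes correlated at -0.545 to 0.385 in soleus and -0.265 to 0.455 in quad, so some of them ran opposite to each other. With retinoic acid the averaged gene had an SE of 0.037 in soleus, against 0.115, 0.080 and 0.076 for its single probes. In quad it was 0.033, against 0.051, 0.051 and 0.058. The Cyp17a1 intervals in these muscles are thus narrower than those of its probes, and whether the probes read the gene there was not tested. The within-day SD of Cyp17a1 in vehicle rats was 0.17 in soleus and 0.12 in quad, against 0.64 in liver. For Gria3 it was 0.27 and 0.49, and for Slc28a2 0.37 and 0.30.

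EDL ratios were tested against 0, which leaves out the spread of the controls, and 40.4% of features passed with retinoic acid at 2.5 mkd. None of the 4 genes did. Slc28a2 gave -0.15 ± 0.07 (SE; p = 0.0295, adjusted p = 0.0682 by limma), with rats from -0.50 through -0.16 to 0.20. Among its single probes, 2 of 3 passed, at -0.19 (adjusted p = 0.0438) and -0.20 (adjusted p = 0.0119), and the other was at -0.06. Without day 3 the gene was at -0.22 (adjusted p = 0.01). Gria3 gave 0.13 (95% interval -0.03 to 0.29), Pla2g12a -0.03 (-0.24 to 0.17) and Cyp17a1 0.02 (-0.08 to 0.11).

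**Figure D4:**
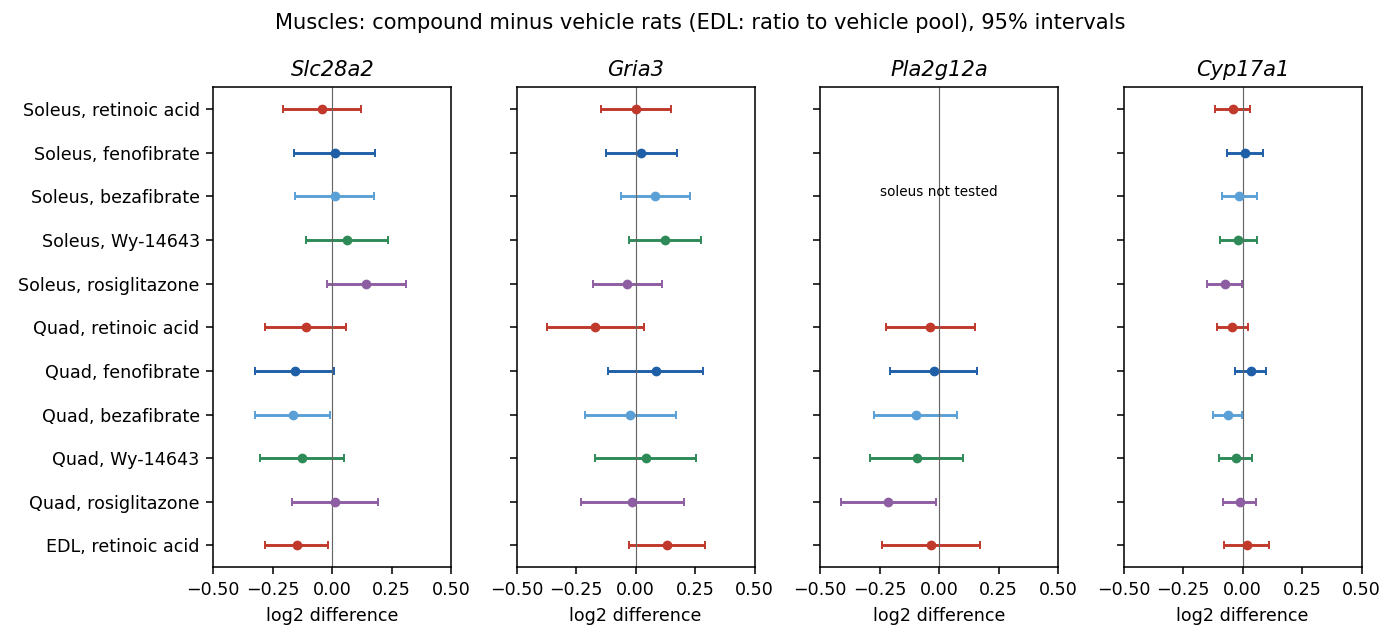
Log2 difference between treated and vehicle rats (x axis) with 95% intervals for each muscle and compound (y axis), 1 panel a gene; EDL is the ratio to the vehicle pool. Point values lie between -0.21 and 0.14, and Pla2g12a has no soleus values to test.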

How the data were processed

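The authors deposited log10 ratios for 23653 probes and 484 two-colour arrays. Its normalization, log base and direction are not given in the sources used here. They were inferred: values are limited to -2 and 2, and ratios were taken as Cy5 (1 rat) over Cy3 (vehicle pool) and multiplied by 3.3219 to give log2. Missing values made up 0.91% and 699 lay at the limit. The number of arrays limits the precision. Array pairs of 1 tissue and day correlated down to -0.273 in liver, -0.463 in quad, -0.649 in soleus and -0.056 in EDL, and the direction given by the dyes was kept.

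Probes were named from the platform annotation (15260 had 1 gene, 17 several, 8376 none) and averaged per gene, giving 18603 features. Those with values on at least 80% of the arrays were fitted with limma 3.58.1 in R 4.3.3, 1 mean per compound and day. Compounds were set against vehicle within days, days weighted equally, p values two-sided and adjusted by Benjamini-Hochberg at 0.05 over all features. The fit was checked on simulated data. Rats are replicates, and where labels name no litter or cage p values measure the spread between these rats.

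The genes and gene lists were chosen with earlier results of these data known. Named in the text are the 4 genes, their probes, up to 4 list genes with the smallest adjusted p, the 3 genes most like each, and 3 genes for direction; Alb and Cyp7a1 were named after their values were seen. The rat number was taken to mark 1 animal across tissues; the 4 day 3 rosiglitazone quads, numbered 1 to 4, share no number with another tissue. Soleus and quad of 1 rat correlated at a median of 0.256 (lowest -0.258) over 111 rats, against -0.0528 between rats.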

Additional observations from a re-analysis of the deposited data

Results flagged for a closer look

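In EDL, Gria3 in rat 1355, given rosiglitazone at 10 mkd and labelled day 6, stood at 0.794 (log2 ratio to the vehicle pool), while the next of the 9 rats of that dose was at 0.232. The gap is above the 95% critical value of Dixon's test for a group of 9. It was the 1 group of 16 checked that passed, and chance passes about 1 in 20.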

How the results depend on the processing

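Single values and correlations were recomputed under each alternative. Of these recomputed values, 959 kept their direction and side of the threshold, 21 lost a call, 8 gained one, 1 moved by more than the spread between rats and 0 reversed. The value that moved was Gria3 with retinoic acid in liver, 1.98 with arrays scaled to one spread. The count of genes called in liver stayed within 1.5 times of 12.

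In quad the count of 0 of 20 became 1 with array weights and 5 when treated rats were tested against the pool, which leaves out the controls' spread. In EDL the count of 0 of 4 became 1 without day 3. Of 6 pairs in vehicle livers, the count of 3 by r became 0 without the 2 arrays farthest in the first-named gene. It became 0 without rat 1050 (added after the values were seen) and 1 without day 5. With the rat number as a block (replicate block; 18 retinoic acid and 28 vehicle rats), soleus minus quad still called 0 of 3 genes, at -0.03 for Slc28a2, -0.01 for Gria3 and 0.06 for Cyp17a1. No vehicle liver stood apart by the rule on spread and markers, so that alternative was not run for the pairs.

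Feature counts moved more. With array weights rosiglitazone in liver called 387 features in place of 4162, and bezafibrate 6802 in place of 3910; the cause was not tested. Retinoic acid called 192 to 1371 features in soleus and 210 to 749 in quad.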
